A study of Danio rerio with 26 samples.

Results

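The skin transcriptome of 10 male zebrafish (Danio rerio) aged 1 year was compared between 2 rotenone concentrations, 37.5 nM (5 fish, numbered 198 to 202 in the sample titles) and 3.75 nM (5 fish, numbered 189 to 193). These 10 of the 26 fish in the series were chosen by age, concentration and title number alone. All 10 fish carried the strain label AB JxTu, all had received rotenone, and no untreated fish was measured, so every value below sets a higher against a lower concentration, with no baseline. The titles of the other 8 fish of that age fall into a lower run of numbers (173, 174, 175 and 177 at 37.5 nM, 164 to 167 at 3.75 nM), and the labels do not say what the runs stand for. The 2 concentrations were deposited in separate count tables, so a difference between the tables and a difference between concentrations cannot be told apart. The sources used here give neither how long the fish were treated nor at what hour their skin was taken. Libraries were made from total RNA (TruSeq RNA Library Preparation Kit v2).

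Rotenone is a plant-derived inhibitor of complex I, the first enzyme of the mitochondrial respiratory chain. Fish skin is a living epidermis of keratinocytes with mucous cells and ionocytes, lying on a dermis that bears bony scales. Zebrafish skin cells hold their own circadian clock, in which BMAL and CLOCK proteins drive the genes of the PER, CRY and NR1D (REV-ERB) repressors, which in turn switch the drivers off, so that the repressor genes and the BMAL genes peak at opposite times of day. The aryl hydrocarbon receptor is a ligand-activated transcription factor that induces CYP1 enzymes and its own repressor, AHRR.

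Each fish gave 1 library, with 26161555 to 32414459 counts assigned to genes. Values are given as CPM (counts per 1000000 of the library's total, scaled between libraries by the trimmed mean of M values, TMM), listed in the order of fish numbers 198 to 202 for 37.5 nM and 189 to 193 for 3.75 nM. Skin markers were present in every library. The periderm keratin gene krt4 had 3144 to 5511 CPM at 37.5 nM and 2817 to 3204 CPM at 3.75 nM, and the basal keratinocyte factor gene TP63 had 466.5 to 847.5 and 273 to 738 CPM in the same order of groups.

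Several libraries stood apart from the rest. Fish 190, at 3.75 nM, held 282 genes at more than 4-fold above every one of the other 9 fish, whereas no other fish held more than 3. They include genes of germ cells and of other testis cells. PIWIL1 (ENSDARG00000041699), a piRNA-binding protein of the male germline, had 244 CPM in fish 190 and 0.10 to 3.70 CPM in the other 9 fish. The Leydig cell hormone gene insl3 had 134.9 CPM in fish 190 and at most 2.18 CPM in the others, and the gonadal somatic cell gene gsdf had 89.05 CPM in fish 190 and 0.73 to 3.00 CPM in the others. The testis marker list, chosen after these values were seen, summed to 19.2 to 26.8 CPM at 37.5 nM and to 16.5, 1733, 25.6, 68.5 and 21.0 CPM at 3.75 nM.

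Liver transcripts also differed between libraries. The summed liver list was 10.9, 19.8, 26.8, 7.64 and 29.2 CPM at 37.5 nM, against 12.3, 1074, 82.1, 1846 and 676 CPM at 3.75 nM. Fish 190, 192 and 193 were far above every 37.5 nM fish and fish 191 moderately above them, while fish 189 lay among them. The same list summed to 73.1 to 309 CPM and 15.2 to 1889 CPM in the low-number fish at 37.5 and 3.75 nM. The largest sums thus occurred at 3.75 nM in both runs. Every 37.5 nM fish of the low run was also above every 37.5 nM fish of the high run. Skeletal muscle genes varied within both groups, the muscle list summing to 50397, 15214, 22683, 7675 and 18146 CPM at 37.5 nM and 26009, 10384, 9434, 66666 and 13761 CPM at 3.75 nM. The muscle marker genes actc1b and ckma, the erythrocyte gene hbaa1 and the vessel genes kdrl and cdh5 were above 0 in all 10 fish, and 21 of 23 liver list genes and 11 of 22 testis list genes passed the filter on low counts. The part of these transcripts in the other results was not tested beyond the values given without the fish concerned. In bulk tissue, fewer cells of a type and less RNA per cell cannot be told apart.

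Fish 189, at 3.75 nM, stood apart in the other direction, with 217 genes at more than 2-fold below every one of the other 9 fish (the next highest number was 55, in fish 202). They include FKBP5 (ENSDARG00000028396), a co-chaperone gene induced by glucocorticoids, with 66.7 CPM in fish 189 and 1133 to 2125 CPM in the other 9 fish, and tsc22d3, another glucocorticoid-induced gene, with 68.8 CPM against 303.5 to 520 CPM. The hemidesmosome integrin gene ITGB4 had 1222 CPM against 2731 to 5833 CPM. Its clock genes were also shifted, as given below, so values without fish 189, fish 190 or the 3 liver-rich fish are given beside the results where a call or a count moved most. Fish 202 differed from the other 37.5 nM fish in the dermal collagen gene col1a1a, at 902 CPM against 11200 CPM or more.

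**Figure D1:**
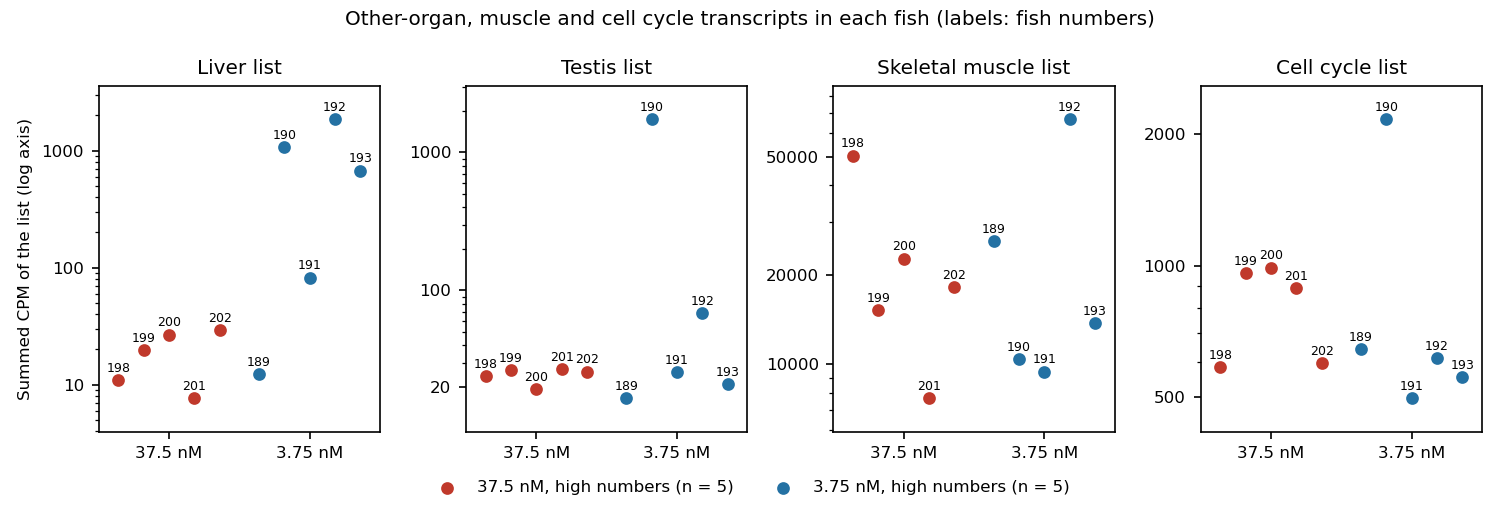
Summed CPM (log axes) of the liver, testis, skeletal muscle and cell cycle lists in each fish, 37.5 nM in red on the left and 3.75 nM in blue on the right, each point labelled with its fish number. Fish 190, 192 and 193 lie at 676 to 1846 CPM in the liver list, fish 190 stands alone in the testis list at 1733 CPM and leads the cell cycle list at 2164 CPM, and muscle varies in both groups.

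The comparison asks how skin expression differs between the higher and the lower rotenone concentration in these fish. No gene passed edgeR's threshold. The genes that DESeq2 called include clock repressors and plasma proteins made in liver, lower at 37.5 nM, and genes of the aryl hydrocarbon receptor pathway, higher at 37.5 nM. edgeR's quasi-likelihood test was run on 18929 genes, of which 0 (0.00%) reached a Benjamini-Hochberg adjusted p under 0.05, and the smallest adjusted p was 0.540. At an unadjusted p under 0.05 there were 995 genes (5.26%), 316 higher (1.67%) and 679 lower (3.59%) at 37.5 nM. DESeq2 called 69 genes (0.365%), 8 of them higher, and limma-voom called 0 (686 at an unadjusted p under 0.05). Of the 69, 26 were in the liver or complement and plasma protein lists, 5 in the clock list and 3 in the aryl hydrocarbon receptor list. Called genes outside these lists could also be high in each of the 3 liver-rich fish. Their lowest value in those fish was 21.6-fold the highest at 37.5 nM for ldhbb, 16.9-fold for rnasel3, 16.0-fold for cbln8 and 6.7-fold for UCP1. It was 1.26-fold for nox1 and 1.08-fold for dnaja. The 26 therefore do not count every call with the liver pattern, and its source was not tested. The labels say only that the libraries come from different fish, so these p-values speak to variation among individuals. The biological coefficient of variation was 0.393 and the median standard error (SE) of a log2 fold change 0.25, against 0.292 and 0.20 in the low-number run.

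For 147 genes (0.777%) the CPM values did not overlap between the groups of 5, with 69 higher (0.365%) and 78 lower (0.412%) at 37.5 nM. This share is close to what groups of 5 drawn at random from the same fish would give. The 5.26% at an unadjusted p under 0.05 is likewise near the share that this threshold passes with no difference. Separated groups therefore do not by themselves mark a gene as different. On CPM without TMM scaling, these counts were 36 higher and 64 lower. The genes named below are those listed by the rule given with the processing, plus others chosen after their values were seen.

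Clock genes lay on both sides of zero. Among 47 clock genes measured, 9 were higher and 8 lower at an unadjusted p under 0.05, beside 1.67% and 3.59% of all genes, and 4 higher and 5 lower genes did not overlap between the groups, beside 0.365% and 0.412%. The repressor genes NR1D1, NR1D2, PER3 and a PER1 copy and the output gene dbpa were lower at 37.5 nM, while cry3a, cry3b, cry4 and HLF were higher. The list's median was 0.089 on the log2 scale, against -0.032 over all genes.

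Among the repressors, NR1D1 (ENSDARG00000033160), which encodes the REV-ERB alpha repressor of BMAL genes, had 1.77, 2.47, 1.19, 1.88 and 1.71 CPM at 37.5 nM, against 13.1, 5.07, 4.33, 3.47 and 5.86 CPM at 3.75 nM. Every 37.5 nM fish lay below every 3.75 nM fish, and fish 189 was the highest. The log2 fold change was -1.83 ± 0.37 (SE; edgeR unadjusted p = 0.000462, adjusted p = 0.540), DESeq2 gave an adjusted p of 0.000886, and without fish 189 the log2 fold change was -1.38. Its paralogue NR1D2 (ENSDARG00000009594) had 36.1, 53.6, 51.1, 48.7 and 40.7 CPM at 37.5 nM and 122.0, 63.2, 89.7, 68.8 and 102.5 CPM at 3.75 nM, again without overlap, with a log2 fold change of -0.97 ± 0.19 (DESeq2 adjusted p = 0.00115). A further copy, nr1d2a, did not follow it. Its value was 23.8 CPM in fish 189 and 251 to 560 CPM in the other 9 fish, with a log2 fold change of 0.02 ± 0.55.

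The period genes encode the inhibitors that partner with cryptochromes. PER3 (ENSDARG00000010519) had 21.7, 34.7, 33.1, 25.9 and 26.8 CPM at 37.5 nM, against 83.4, 39.8, 56.0, 63.1 and 54.8 CPM at 3.75 nM. The groups did not overlap, and fish 189 was again the highest. Its log2 fold change was -1.08 ± 0.20 (edgeR unadjusted p = 0.000237), with a DESeq2 adjusted p of 0.000532 in all fish. Without fish 190, 192 and 193 the DESeq2 adjusted p was 0.00133. That fit kept fish 189 and dropped fish 190, the lowest of the 3.75 nM fish, so it leans on fish 189. With single fish left out, the log2 fold change of PER3 ran from -1.19 to -0.92. PER1 (ENSDARG00000012499) had 13.9, 22.8, 12.8, 13.4 and 10.6 CPM at 37.5 nM and 81.5, 32.2, 31.1, 25.4 and 32.0 CPM at 3.75 nM, a log2 fold change of -1.47 ± 0.34 that was -1.05 without fish 189 (DESeq2 adjusted p = 0.00748 in all fish). The second PER1 copy (ENSDARG00000056885) overlapped, at 4.915 to 6.76 CPM at 37.5 nM and 3.996 to 12.2 CPM at 3.75 nM, with fish 189 the lowest of all 10 fish. PER2, a light-induced period gene in zebrafish, had 139 to 168 CPM at 37.5 nM and 81.4 to 178 CPM at 3.75 nM, with a log2 fold change of 0.29 ± 0.18.

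Output genes of the PAR bZIP family divided. dbpa (ENSDARG00000063014) had 2.46, 2.76, 2.24, 1.54 and 1.62 CPM at 37.5 nM and 8.50, 4.14, 3.48, 4.40 and 3.25 CPM at 3.75 nM, without overlap, with a log2 fold change of -1.18 ± 0.31 (edgeR unadjusted p = 0.00294). dbpb lay at -0.59 ± 0.19 and the clock repressor gene ciartb at -0.84 ± 0.25, both with overlapping groups. HLF (ENSDARG00000061011) went the other way, with 4.72, 3.70, 6.935, 5.26 and 8.36 CPM at 37.5 nM, against 2.76, 2.65, 3.05, 1.95 and 3.35 CPM at 3.75 nM, and a log2 fold change of 1.06 ± 0.25 (DESeq2 adjusted p = 0.0204). That call was lost without fish 190 (DESeq2 adjusted p = 0.0560) and without fish 190, 192 and 193 (0.359). hlfa was at 0.72 ± 0.20, and tefa, with 274 to 346 CPM at 37.5 nM and 196 to 418 CPM at 3.75 nM, at 0.02 ± 0.20.

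Among the clock genes that were higher, cry3a (ENSDARG00000069074), a cryptochrome gene, had 452.5, 351, 416, 398 and 377 CPM at 37.5 nM and 256.5, 264, 323, 333 and 314 CPM at 3.75 nM. All 5 fish at 37.5 nM were above all 5 at 3.75 nM, by 0.41 ± 0.12 on the log2 scale (edgeR unadjusted p = 0.00756). cry3b had 206 to 257 CPM at 37.5 nM and 39.1 to 173 CPM at 3.75 nM, fish 189 being the lowest, and a log2 fold change of 0.95 ± 0.32. BMAL1 (ENSDARG00000035732), a driver of the loop, had 13.2, 7.47, 15.2, 7.60 and 8.24 CPM at 37.5 nM against 7.34, 5.56, 4.50, 8.49 and 7.66 CPM at 3.75 nM. Only fish 198 and 200 exceeded all of the 3.75 nM fish, and the log2 fold change was 0.61 ± 0.26 (edgeR unadjusted p = 0.0403). The ROR activator gene rorcb was at 1.13 ± 0.32 and the repressor genes nfil3-5 and NFIL3 at 1.05 ± 0.30 and 0.80 ± 0.24, all with overlapping groups. The other BMAL1 copy was at 0.30 ± 0.21, CRY2 at -0.16 ± 0.15 and the 2 CRY1 copies at -0.32 ± 0.30 and 0.18 ± 0.13.

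All 17 clock genes at an unadjusted p under 0.05 had the same sign in the low-number fish, a comparison that shares no fish with this one, and 12 of them were called there. Over all genes at that p measured in both runs, 669 of 941 had the same sign and 235 were called with it. The low run has the same split of concentrations between the 2 count tables, so table and concentration cannot be told apart there either. In that run NR1D1 had 2.57, 4.165, 2.5 and 2.92 CPM at 37.5 nM and 17.7, 18.5, 13.9 and 11.01 CPM at 3.75 nM, and fell by 2.33 on the log2 scale (edgeR adjusted p = 0.000278). PER1 (ENSDARG00000012499) fell by 1.52 there (edgeR adjusted p = 0.000107), dbpa fell by 1.66 (adjusted p = 0.00146), cry3a rose by 0.85 (adjusted p = 0.000317) and BMAL1 (ENSDARG00000035732) rose by 1.21 (adjusted p = 0.00261). PER3, HLF and cry4 did not pass there, at -0.26, 0.06 and 0.16 (edgeR adjusted p = 0.356, 0.837 and 0.539), and the difference between runs was not called for any of these 3 (adjusted p = 0.126, 0.0804 and 0.356). It was called for 2 members of the clock list, PER2 and cry5, which fell in the low run by 0.56 and 1.01 and were at 0.29 and 0.28 here (adjusted p of the difference 0.0483 and 0.0474).

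**Figure D2:**
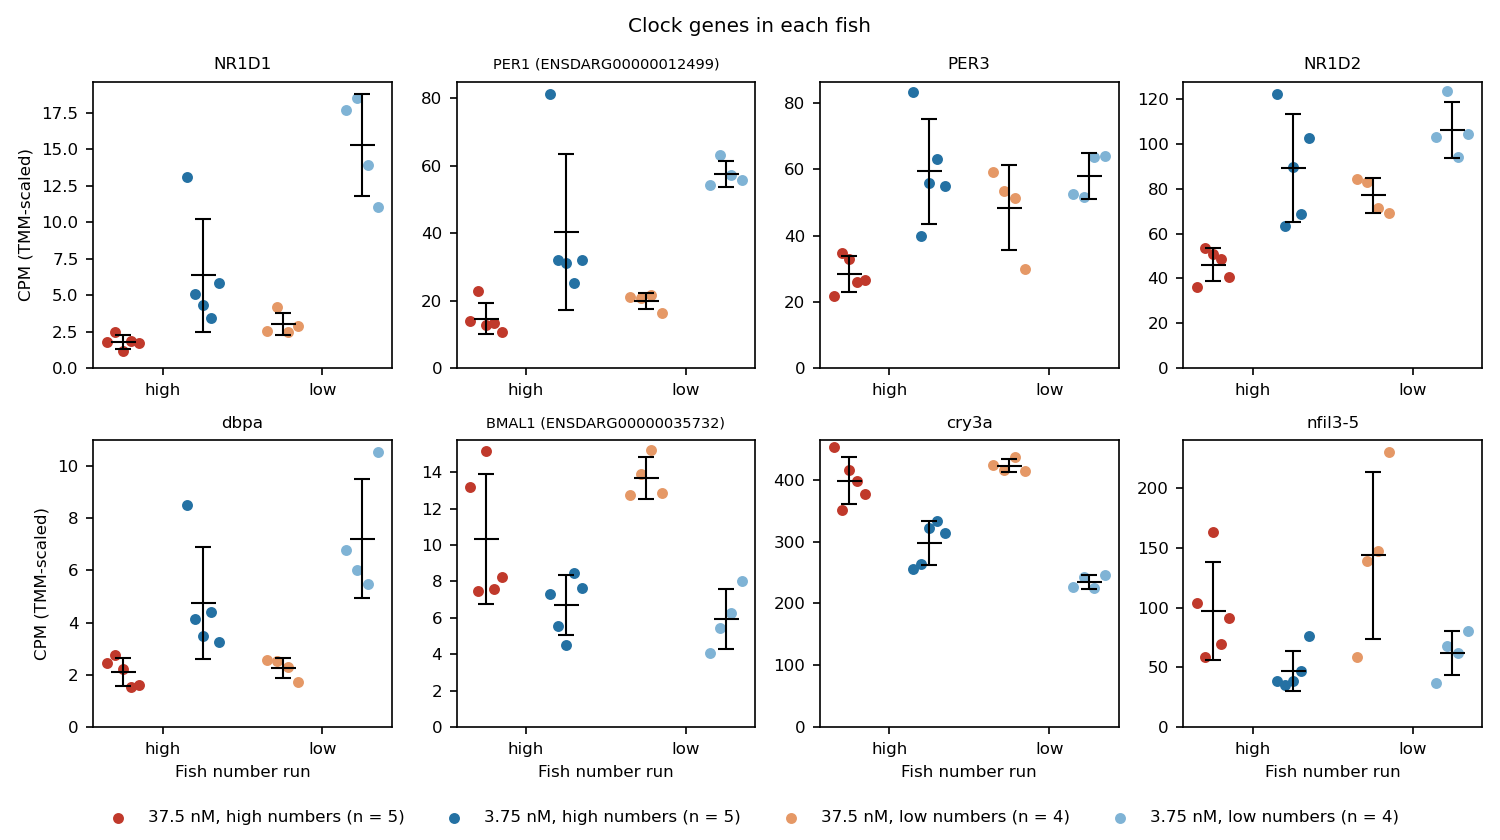
CPM of 8 clock genes in each fish, with the mean and SD, for 37.5 and 3.75 nM in the high-number run (dark colours) and in the low-number run (light colours). NR1D1, PER1 (ENSDARG00000012499), NR1D2 and dbpa lie lower and cry3a lies higher at 37.5 nM in both runs, without overlap in either, while the PER3 groups do not overlap in the high run and overlap in the low run, a difference between runs that was not called (edgeR adjusted p = 0.126).

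Several genes of the aryl hydrocarbon receptor pathway were higher at 37.5 nM. Of 15 members measured, 6 were higher and 0 lower at an unadjusted p under 0.05, beside 1.67% and 3.59% of all genes. CYP1A1 and ahrra did not overlap between the groups, beside 0.365% of all genes that were higher without overlap. The list's median log2 fold change was 0.26, against -0.032 over all genes. The 6 were CYP1A1, ahrra, FOXQ1, foxq1b, CYP1B1 and the receptor gene ahr2. As with the other lists, the members were chosen with earlier results of these data known, so the counts only describe the list.

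CYP1A1 (ENSDARG00000098315), a detoxifying cytochrome P450 that is the standard readout of the receptor, had 131, 278, 125, 194 and 199 CPM at 37.5 nM, against 15.8, 27.15, 89.6, 33.8 and 17.96 CPM at 3.75 nM. Every 37.5 nM fish was above every 3.75 nM fish, of which fish 191 came closest. The log2 fold change was 2.32 ± 0.47 (edgeR unadjusted p = 0.000526, DESeq2 adjusted p = 0.000532). Without the 3 liver-rich fish, with only fish 189 and 191 left at 3.75 nM, it was 1.83 and the DESeq2 call was lost (adjusted p = 0.185). ahrra (ENSDARG00000099702), the receptor's repressor, had 4.185, 6.31, 6.935, 6.145 and 4.41 CPM at 37.5 nM and 0.47, 1.72, 2.205, 1.25 and 2.03 CPM at 3.75 nM, a log2 fold change of 1.85 ± 0.36 (DESeq2 adjusted p = 0.000442, and 0.0231 without the 3 liver-rich fish).

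In the other members the groups overlapped. FOXQ1 (ENSDARG00000030896), a forkhead factor gene, had 245, 161, 341, 567 and 51.9 CPM at 37.5 nM and 75.8, 124, 25.4, 25.9 and 44.5 CPM at 3.75 nM. Fish 202 lay among the 3.75 nM fish and the other 4 above them, with a log2 fold change of 2.19 ± 0.63 (DESeq2 adjusted p = 0.0478, and 0.105 without the 3 liver-rich fish). foxq1b, which dioxin induces in zebrafish, was at 1.52 ± 0.51, the steroid-metabolizing CYP1B1 at 0.76 ± 0.28 and ahr2 at 0.31 ± 0.13. The remaining members, among them cyp1c1, tiparp, arnt and ahrrb, had unadjusted p of 0.0705 or more, and the receptor copy ahr1a was filtered out at 0.232 CPM or less in every fish.

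CYP1A1 differed between the runs. In the low-number fish it had 20.4, 18.1, 19.5 and 31.1 CPM at 37.5 nM and 31.3, 20.8, 26.7 and 34.9 CPM at 3.75 nM, a log2 fold change of -0.35 (edgeR adjusted p = 0.268). The difference between the runs, 2.68 on the log2 scale, was called (edgeR adjusted p = 0.0148). All 5 fish at 37.5 nM with high numbers were above every fish of the other 3 groups. For ahrra the low run gave 0.66 (edgeR adjusted p = 0.0987) and the difference between runs was not called (adjusted p = 0.150). FOXQ1, foxq1b, CYP1B1 and ahr2 rose in the low run by 1.60, 1.25, 1.37 and 0.48 (edgeR adjusted p = 0.0121, 0.0401, 0.0118 and 0.00924).

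The smallest p of all genes belonged to nox1 (ENSDARG00000087574), a NADPH oxidase that makes superoxide. It had 0.81, 0.98, 1.72, 1.34 and 2.22 CPM at 37.5 nM and 8.25, 6.52, 8.91, 2.80 and 6.91 CPM at 3.75 nM. The groups did not overlap, with fish 192 the closest, and the log2 fold change was -2.24 ± 0.36 (edgeR unadjusted p = 7.7e-05, DESeq2 adjusted p = 1.43e-05). It was -2.24 without fish 190 and -2.58 without the 3 liver-rich fish. In the low run nox1 was at -1.10 (edgeR adjusted p = 0.183).

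Other genes with separated groups had varied roles. The co-chaperone gene dnaja (ENSDARG00000051762) had 5.68, 6.02, 4.81, 7.64 and 6.62 CPM at 37.5 nM and 10.9, 15.1, 15.9, 11.6 and 8.23 CPM at 3.75 nM, a log2 fold change of -1.02 ± 0.21 (DESeq2 adjusted p = 0.00239), and it fell by 1.97 in the low run (edgeR adjusted p = 0.00116). diabloa, which encodes a mitochondrial inducer of apoptosis, had 2.61 to 3.39 CPM at 37.5 nM and 3.82 to 16.4 CPM at 3.75 nM. Its log2 fold change of -1.77 ± 0.36 was -0.70 without the 3 liver-rich fish, which held its 3 highest values (DESeq2 adjusted p = 0.00116 with all fish and 0.394 without the 3).

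Liver genes had large fold changes that rested on 3 fish. Each of the 21 liver list members that passed the filter was lower at 37.5 nM at an unadjusted p under 0.05, beside 3.59% of all genes, with a median log2 fold change of -5.37. The list was written after the liver-rich libraries had been seen, and genes at these levels pass the filter through those libraries, so the count and the median describe those fish. fabp10a (ENSDARG00000038439), the liver fatty acid-binding protein, had 0.92, 2.5, 2.16, 0.42 and 2.58 CPM at 37.5 nM and 0.62, 67.6, 8.23, 129 and 50 CPM at 3.75 nM. Fish 189 was among the 37.5 nM fish, and the log2 fold change of -4.91 ± 1.12 was -1.33 without fish 190, 192 and 193. The complement and plasma protein list, with 24 of 38 members lower and 0 higher, had a median of -3.50 with all fish and -0.56 without those 3. DESeq2 called 26 of the 43 members of these lists lower with all fish and 0 without the 3. Those 3 fish were picked for their liver or testis transcripts, so this loss of calls largely followed from the choice and tests nothing. The fit without the 3, with only fish 189 and 191 left at 3.75 nM, called 115 genes in all, 89 of them higher, including 22 cell cycle genes. cyp2k22, a cytochrome P450 gene with 0.41 to 0.91 CPM at 37.5 nM and 0.80, 8.74, 6.065, 9.23 and 4.235 CPM at 3.75 nM, was the only gene that edgeR called when 1 fish was left out, at an adjusted p of 0.0238 without fish 189 (DESeq2 adjusted p = 4.1e-05 with all fish and 0.124 without the 3).

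Cell cycle genes depended on fish 190, whose testis transcripts are given above. With all 10 fish, 1 of 70 members was higher and 2 lower at an unadjusted p under 0.05, with a median log2 fold change of -0.33. Without fish 190 the median was 0.39, with 29 members higher and 0 lower, beside 1.97% higher and 2.07% lower of the 19098 genes then tested. edgeR still called 0 genes of any kind, while DESeq2, an alternative chosen after seeing the data, called 100 genes without fish 190 (46 higher), 16 of them in the cell cycle list, all higher. The part of testis RNA in the cell cycle level of fish 190 was not tested.

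The proliferation marker gene mki67 (ENSDARG00000091150) had 26.3, 66.7, 61.6, 61.4 and 28.3 CPM at 37.5 nM and 18.5, 117.5, 13.5, 20.3 and 19.6 CPM at 3.75 nM. All 5 fish at 37.5 nM lay above the 4 fish 189, 191, 192 and 193 and below fish 190, an order that the list mean did not share. Its log2 fold change was 0.35 ± 0.60 with all fish and 1.43 without fish 190 (edgeR unadjusted p = 0.0012, DESeq2 adjusted p = 0.00696). CENPF, a kinetochore gene, was at 0.42 and 1.73 in the same pair of fits, and plk1, a mitotic kinase gene, at -0.09 and 1.52. In the low run mki67, CENPF and plk1 were at 0.14, 0.75 and 0.26 (edgeR adjusted p = 0.708, 0.0555 and 0.690), and 20 of 69 cell cycle members fell there and 0 rose, beside 13.8% and 12.9% of all genes, with a median of -0.25.

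Most protein-folding and ribosome-assembly genes had small negative log2 fold changes. In the heat shock list, 10 of 72 members were lower and 0 higher at an unadjusted p under 0.05 (3.59% and 1.67% of all genes), with a median of -0.27. Of the 72, 7 had a positive log2 fold change, beside 8422 of all 18929 genes. The mean log2 CPM over the list was 4.59, 4.48, 4.36, 4.49 and 4.54 at 37.5 nM and 4.85, 4.74, 4.78, 4.84 and 4.59 at 3.75 nM. The groups did not overlap, although fish 198 and fish 193 were nearly level. hsp90aa1.1, an inducible HSP90 gene of muscle in zebrafish, had 12.1, 6.13, 11.8, 4.34 and 9.08 CPM at 37.5 nM and 37.1, 13.3, 10.7, 48.9 and 17.5 CPM at 3.75 nM, a log2 fold change of -1.57 ± 0.46 (edgeR unadjusted p = 0.0062). HSP90AA1 was at -1.19 ± 0.38, the transcription factor gene HSF2 at -0.79 ± 0.22 and one HSPA8 copy (ENSDARG00000037403) at -1.07 ± 0.47. The abundant HSPA8 copy (ENSDARG00000068992), at 1910 to 4768 CPM and 2552 to 4120 CPM in the 37.5 and 3.75 nM fish, was at -0.07 ± 0.23, hsp70l at -0.52 ± 0.37 and hsf1 at -0.02 ± 0.14.

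Ribosome biogenesis genes act in the nucleolus to process ribosomal RNA. Of 66 members, 12 were lower and 0 higher at an unadjusted p under 0.05, beside 3.59% and 1.67% of all genes, with a median log2 fold change of -0.30. Without fish 190, 6 were lower (2.07% of all genes), with a median of -0.24. RRS1 had 11.6, 14.4, 10.07, 17.1 and 16.45 CPM at 37.5 nM and 28.8, 22.5, 21.2, 15.3 and 15.5 CPM at 3.75 nM, with fish 192 and 193 inside the range of the 37.5 nM fish, and a log2 fold change of -0.58 ± 0.21. FBL, the rRNA methyltransferase fibrillarin, was at -0.52 ± 0.18. DKC1, the pseudouridine synthase dyskerin, was at -0.64 ± 0.30 and npm1a, nucleophosmin, at -0.42 ± 0.21. Mitochondrial ribosomal protein genes gave 9 lower and 0 higher of 73, with a median of -0.23. Of the 73, 1 was positive, beside 8422 of all 18929 genes. Without fish 190, 19 were lower, with a median of -0.28. The proteasome list had a median of -0.16 with 0 of 46 members at an unadjusted p under 0.05.

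The same lists had larger differences in the low-number fish. There 41 of 73 heat shock members, 54 of 66 ribosome biogenesis members, 49 of 73 mitochondrial ribosomal members and 21 of 46 proteasome members fell (13.8% of all 18820 genes tested fell), and 1, 3, 0 and 1 rose, with medians of -0.81, -1.03, -0.53 and -0.40. The difference between runs was called in the positive direction, that is, with less decrease in the high run, for 13, 29, 8 and 3 members of these lists, beside 3.31% of 19952 genes, and for 0 members in the negative direction. HSPA5, the chief chaperone of the endoplasmic reticulum, fell by 2.18 in the low run and had 129, 253, 202, 310.0 and 255 CPM at 37.5 nM against 326, 246, 339.7, 181 and 263 CPM at 3.75 nM here, a log2 fold change of -0.25 ± 0.24 (edgeR adjusted p of the difference 0.00597). MANF, a secreted factor of the same stress response, fell by 2.56 in the low run and was at -0.12 ± 0.26 here (adjusted p of the difference 0.00314). ODC1, the first enzyme of polyamine synthesis, fell by 3.12 there and was at -0.25 ± 0.41 here (adjusted p of the difference 0.00927).

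For heat shock and ribosome biogenesis, the list means were closer between runs at 37.5 nM than at 3.75 nM. Other lists, such as dermal fibroblasts, had the reverse order. The cell cycle list did so only with fish 190 in its high-run mean at 3.75 nM. That fish was at 4.52, against 2.14 to 2.66 in fish 189, 191, 192 and 193. The heat shock mean log2 CPM was 4.49 ± 0.083 (SD, n = 5) and 4.42 ± 0.085 (n = 4) in the 37.5 nM fish of the high and low runs, and 4.76 ± 0.10 and 5.25 ± 0.070 in their 3.75 nM fish. For ribosome biogenesis the means were 4.56 ± 0.19 and 4.61 ± 0.16 at 37.5 nM and 4.81 ± 0.22 and 5.57 ± 0.11 at 3.75 nM. HSPA5 had 599 to 1216 CPM and npm1a 259 to 317 CPM in the low-number fish at 3.75 nM, above every fish of the other 3 groups. The runs share no fish and no label that explains them, so run and any unrecorded difference between them cannot be told apart.

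**Figure D3:**
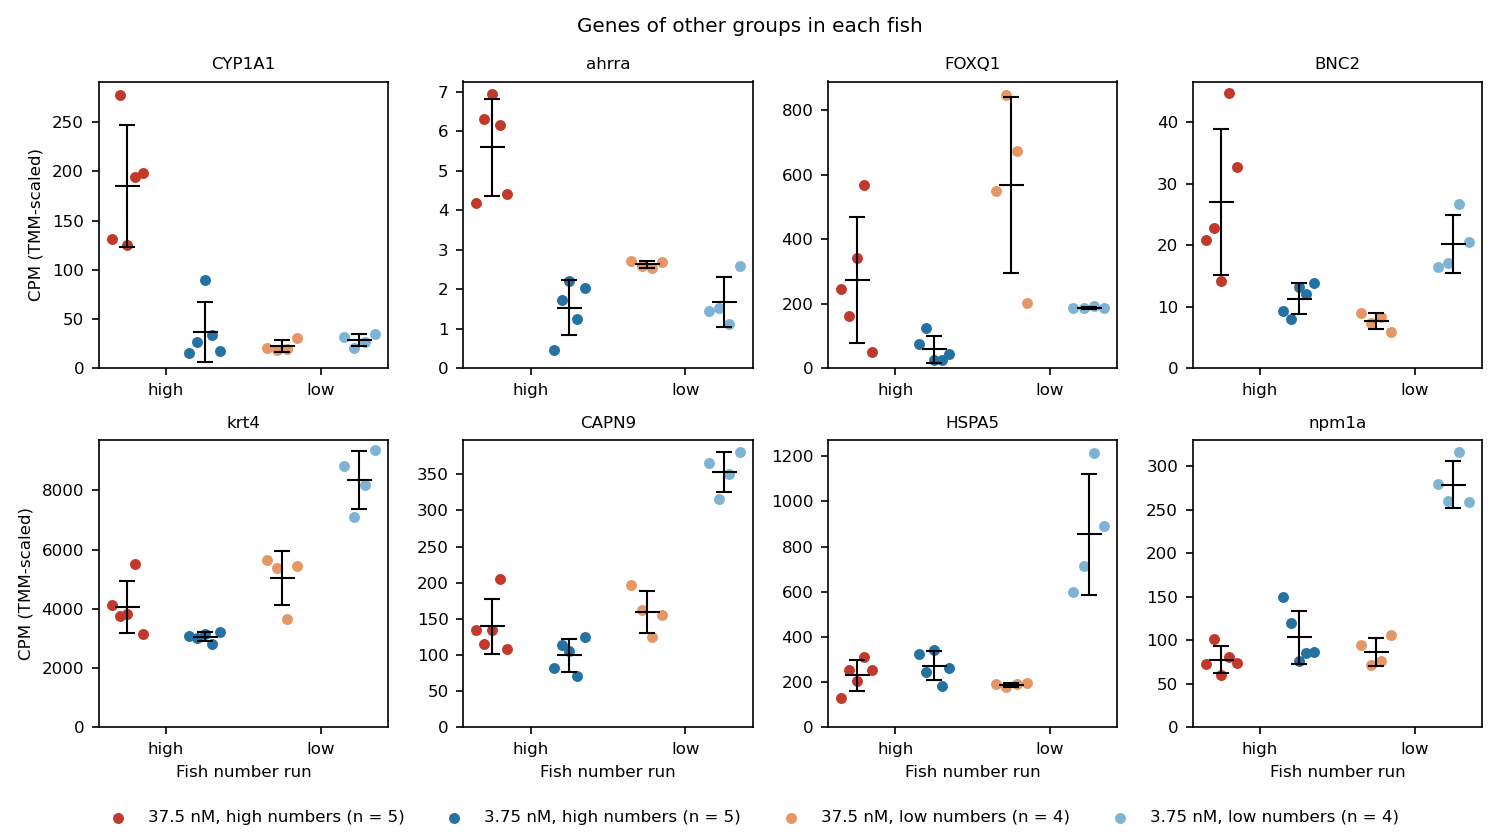
CPM of 8 genes in each fish, with the mean and SD, in the high-number run (dark colours) and the low-number run (light colours), 37.5 nM left of 3.75 nM in each. CYP1A1 reaches 125 to 278 CPM only at 37.5 nM in the high run, BNC2 and krt4 lie on opposite sides in the runs, and HSPA5 and npm1a are highest at 3.75 nM in the low run.

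None of the genes of complex I, the enzyme that rotenone inhibits, passed the test. In the complex I list all 38 members had a negative log2 fold change, whereas 8422 of all 18929 genes had a positive one. Of the 38, 0 reached an unadjusted p under 0.05, and the median was -0.29. The median was -0.084 without fish 192 and -0.42 without fish 198, the ends of its range when 1 fish was left out. The mean log2 CPM was 5.81, 5.26, 5.35, 5.19 and 5.45 at 37.5 nM and 5.88, 5.24, 5.35, 6.26 and 5.48 at 3.75 nM. Fish 192, 189 and 198 were the highest, and these 3 fish also had the largest sums of the muscle list (66666, 26009 and 50397 CPM). With the mean of the muscle list as a term the complex I median was -0.21. The shift was not particular to complex I. In the list of complexes II to V, 4 of 44 members were positive and 0 reached an unadjusted p under 0.05, with a median of -0.26. Fish 192, 189 and 198 were again the highest there, at a mean log2 CPM of 7.46, 7.08 and 7.07. NDUFS1, a core subunit, was at -0.32 ± 0.26 and MT-ND1, encoded by the mitochondrial genome, at -0.37 ± 0.25. The antioxidant genes SOD2 and HMOX1 were at -0.12 ± 0.14 and 0.09 ± 0.15, and the p53 target cdkn1a at 0.69 ± 0.36 (edgeR unadjusted p = 0.0805).

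Several genes lay on opposite sides in the runs. BNC2 (ENSDARG00000069989), a zinc finger gene needed for adult pigment stripes in zebrafish, had 20.9, 22.9, 14.2, 44.7 and 32.8 CPM at 37.5 nM and 9.30, 8.01, 13.2, 12.1 and 13.9 CPM at 3.75 nM. The groups did not overlap, though fish 200 and 193 were close, and the log2 fold change was 1.25 ± 0.29 (DESeq2 adjusted p = 0.0183). That call was lost without fish 190 (DESeq2 adjusted p = 0.0739) and without the 3 liver-rich fish (0.272). In the low run it had 5.96 to 8.94 CPM at 37.5 nM and 16.4 to 26.8 CPM at 3.75 nM and fell by 1.39 (edgeR adjusted p = 0.00109), and the difference of 2.66 between runs was called (adjusted p = 0.00365). arid5b (ENSDARG00000037196), a DNA-binding regulator, was the mirror image, with 18.8, 15.2, 24.1, 10.5 and 9.62 CPM at 37.5 nM and 30.3, 26.1, 35.8, 25.15 and 21.3 CPM at 3.75 nM. Fish 200 alone overlapped the 3.75 nM fish. Its log2 fold change was -0.84 ± 0.26 here and 1.93 in the low run (difference -2.75, edgeR adjusted p = 0.00148).

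Keratinocyte genes were among those with opposite signs. Of 60 keratinocyte members, 4 were higher and 1 lower at an unadjusted p under 0.05, beside 1.67% and 3.59% of all genes. The median log2 fold change was 0.19, and 44 of the 60 were positive, beside 8422 of all 18929 genes. krt4 (ENSDARG00000017624) had 4141, 3754, 3808, 5511 and 3144 CPM at 37.5 nM and 3082, 3011, 3145, 2817 and 3204 CPM at 3.75 nM. Fish 202 lay within the 3.75 nM range and the other 4 above it, with a log2 fold change of 0.40 ± 0.15 (edgeR unadjusted p = 0.022). It fell by 0.73 in the low run (difference 1.15, edgeR adjusted p = 0.00856). krt1-19d was at 0.73 ± 0.23 here and fell by 0.58 there (adjusted p of the difference 0.0215). The epidermal calpain-family gene CAPN9 was at 0.48 ± 0.21 here and fell by 1.15 there (adjusted p of the difference 0.00522), and AGR2, needed for mucin folding in mucous cells, was at 0.42 ± 0.23 here and fell by 1.36 there (adjusted p of the difference 0.00792). The amino-acid sensing kinase gene EIF2AK4 had the reverse order, at -0.32 ± 0.12 here and 0.71 there (adjusted p of the difference 0.0119).

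In other cell type lists, counts at an unadjusted p under 0.05 are read beside 1.67% higher and 3.59% lower over all genes. The scale bone list had 6 of 34 higher and 0 lower, among them DLX3 at 0.72 ± 0.30 and the osteoclast phosphatase gene ACP5 at 0.72 ± 0.28, and the macrophage and Langerhans cell list had 5 of 45 higher and 0 lower. Without fish 190 these counts were 4 and 1 of 34, and 0 and 0 of 45, beside 1.97% higher and 2.07% lower over all genes in that fit. With all fish, 22 of the 34 scale bone members were positive, beside 8422 of all 18929 genes. Fish 202, at 37.5 nM, had the lowest scale bone sum, at 982 CPM against 3940 to 11542 CPM in the rest. Dermal fibroblast (2 of 51), mucous cell (0 of 24) and endothelial (0 of 39) members were higher, with 0, 1 and 0 lower, and 0 fibroblast members were higher without fish 190. The mucin gene muc5.1 was at 0.29 ± 0.31 and the muscle actin gene actc1b, with 998 to 7141 CPM at 37.5 nM and 1170 to 9487 CPM at 3.75 nM, at -0.13 ± 0.70.

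**Figure D4:**
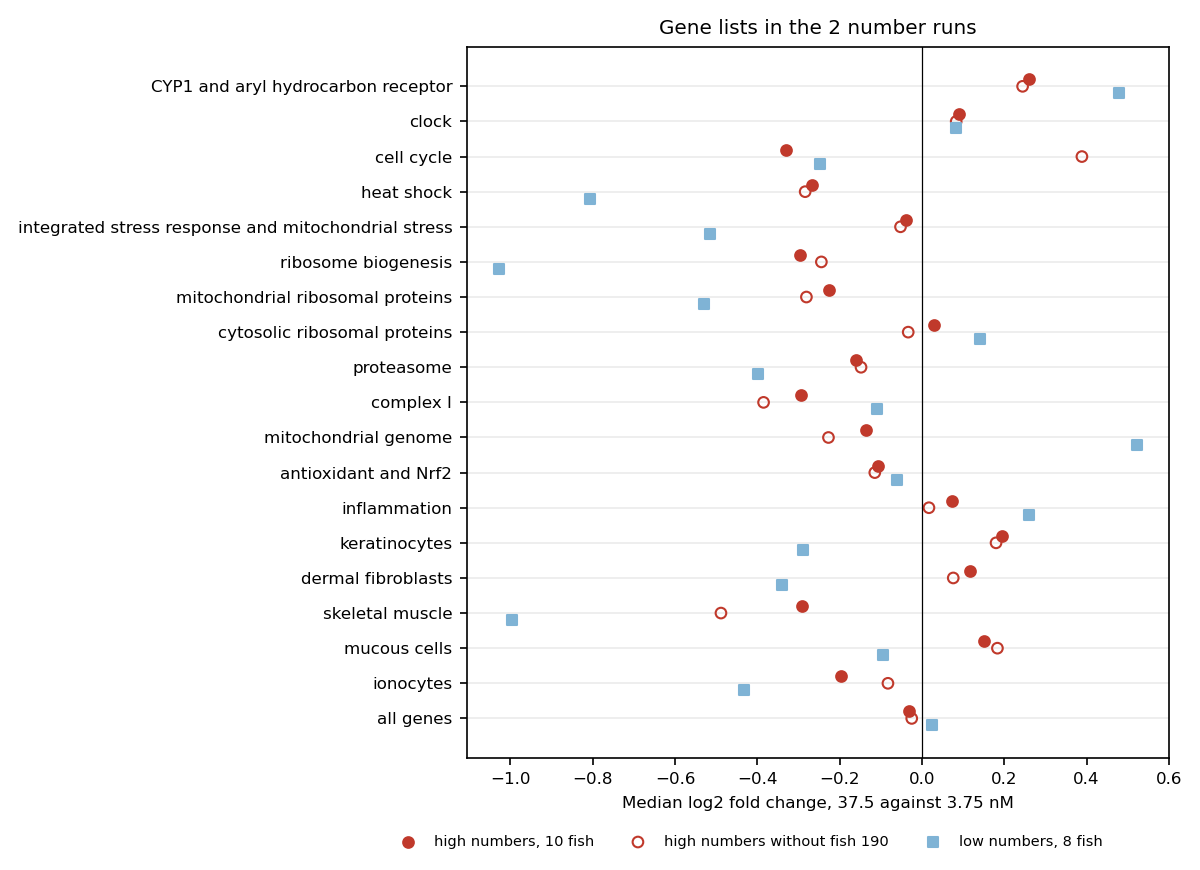
Median log2 fold change of 18 gene lists and of all genes, 37.5 against 3.75 nM, for the high-number run with 10 fish (filled circles), the high-number run without fish 190 (open circles) and the low-number run with 8 fish (squares). The cell cycle median is -0.33 with and 0.39 without fish 190, and the heat shock and ribosome biogenesis medians are -0.27 and -0.30 in the high run and -0.81 and -1.03 in the low run.

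Across all genes, the run with low numbers gave far more calls. edgeR called 5024 of 18820 genes there (26.7%), 2430 higher (12.9%) and 2594 lower (13.8%) at 37.5 nM, from 8 fish. Of 18423 genes measured in both runs, 4995 were called in the low run, and 3595 of these (72.0%) had the same sign in the high run. Their median there was 0.10 in the called direction, against 0.76 in the low run itself, a value raised by the selection there. Only 235 of them had the same sign at an unadjusted p under 0.05 in the high run, and 37 the opposite sign. Across the 18423 genes the log2 fold changes had a Pearson r of 0.217, as a description over genes, which are not independent and share their libraries. Read from the high run, 669 of its 941 genes at an unadjusted p under 0.05 that were measured in both runs had the same sign in the low run, and 235 of them were called there.

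The difference between the runs was called by edgeR for 1140 of 19952 genes (5.71%), 661 positive (3.31%) and 479 negative (2.40%). Of the 1131 measured in both runs, 1108 were called in the low run, and the median size of the log2 fold change was 0.15 in the high run and 1.06 in the low run. In 470 of them the signs were opposite, but only 53 of these reached an unadjusted p under 0.05 in the high run, and 17 of the 1131 were larger in size in the high run, CYP1A1 among them. DESeq2 called 2014 genes for the difference, and leaving out 1 fish gave 603 (without fish 174) to 1745 (without fish 189), so the count was not stable to single fish.

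**Figure D5:**
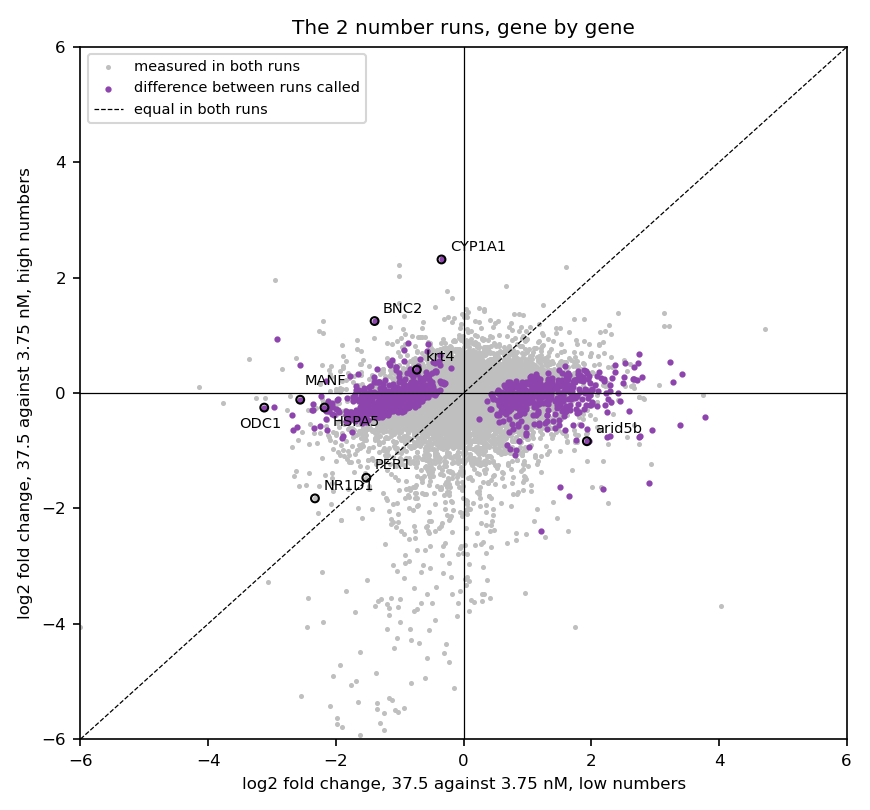
Log2 fold change of each gene measured in both runs, low-number run on the horizontal and high-number run on the vertical axis, with genes called for the difference between runs in purple (6 genes lie outside the axes). Purple genes spread along the horizontal axis and stay near zero on the vertical one, NR1D1 and PER1 (ENSDARG00000012499) lie near the dashed line of equal change, and CYP1A1 and BNC2 lie above zero in the high run only.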

How the data were processed

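Gene counts for skin RNA of 10 male fish were taken from the count tables that the authors deposited. Per the submitters' processing notes, the tools named, without roles, are featureCounts 1.4.6-p4, STAR 2.4.1d and CASAVA 1.8.2, and the build is GRCz10. The deposited RPKM tables were not used. The 2 count tables were joined by gene ID (32105 genes, 26269 with a symbol, 4301 sharing one, which are given with their ID). Whether counting used strand is not given in the sources used here, so counts of overlapping genes are uncertain. Counts of near-identical copies are uncertain as well.

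Genes were filtered with filterByExpr, scaled by TMM and tested with edgeR 4.0.16 (robust quasi-likelihood fit, R 4.3.3), with Benjamini-Hochberg adjustment over all genes and a threshold of 0.05 ("called"). SE is the log2 fold change divided by the square root of F. The difference between runs was an interaction over 18 fish aged 1 year. DESeq2 1.42.0, limma 3.58.1, other scalings and filters, the muscle mean as a term, fits with 18 and 26 fish and leaving out fish were alternatives. The scripts were tested on simulated data. List means are of log2(CPM + 0.5).

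The fish and lists were chosen with earlier results of these data known, and 4 of the lists (testis, liver, pancreas and intestine) were added after the libraries were seen. Of 1885 list entries, 145 matched no gene. The rule for named genes took called genes with a mean log2 CPM of at least 2 and non-overlapping groups, plus fixed genes. Since none was called it left 27 genes, and the others named were chosen after their values were seen. Promoter motifs were not searched.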

Additional observations from a re-analysis of the deposited data

Results flagged for a closer look

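For 77 genes, the difference between the 2 number runs was taken from 1 interaction fit, and 19 were called with edgeR (adjusted p under 0.05). Over all 19952 genes of that fit, 1140 (5.71%) were called. Genes beyond the 27 of the rule were chosen after their values were seen, so the 2 shares cannot be compared. On the log2 scale, the difference, high run minus low run, was 1.682 for RRS1, 1.5076 for DKC1, 1.3167 for nop2, 1.2719 for npm1a and 1.0809 for FBL, all genes of ribosome assembly. It was 2.4614 for MANF, 1.9441 for HSPA5 and 1.3224 for HSPD1, which encode a stress-secreted factor and chaperones. It was 2.891 for ODC1, 2.6813 for CYP1A1 and 2.6564 for BNC2. In epidermal and mucous cell genes it was 1.7878 for AGR2, 1.6398 for CAPN9, 1.3155 for krt1-19d and 1.1475 for krt4. In the clock list it was 1.302 for cry5 and 0.85784 for PER2. Negative differences were found for arid5b, at -2.7513, and EIF2AK4, at -1.006.

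The same genes gave 154 groups of 5 fish in the high run. Of these, 13 held a single fish far from the others of its group by Dixon's criterion. Several of the genes, such as FKBP5 and gsdf, are named above because 1 fish stood apart in them. The number therefore cannot be set against the roughly 1 in 20 that chance gives for genes chosen without their values. Fish 189 accounted for 8 of the 13. Its values, all among the 3.75 nM fish, were 23.8 CPM for nr1d2a, 12.75 CPM for CRY1 (ENSDARG00000011583), 3.996 CPM for PER1 (ENSDARG00000056885), 66.74 CPM for FKBP5, 68.81 CPM for tsc22d3 and 1222 CPM for ITGB4, each the lowest. It was the highest for BHLHE40, at 307.5 CPM, and PER1 (ENSDARG00000012499), at 81.46 CPM. Fish 190 was the highest for gsdf, at 89.05 CPM, and mki67, at 117.5 CPM, and fish 192 the lowest for nox1, at 2.803 CPM. At 37.5 nM, fish 202 was the highest for ahr2, at 268.1 CPM, and fish 200 for hlfa, at 77.26 CPM.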

How the results depend on the processing

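The count of called genes in the high-number comparison stayed at 0 under other scalings, filters, limma-voom and the fit with 18 fish. It was 4 with 26 fish and 69 with DESeq2, and 0 to 1 when single fish were left out. The 4 that edgeR called with 26 fish were NR1D1, ahrra, diabloa and si:ch211-132b12.7. DESeq2 gave 100 without fish 190 and 115 without fish 190, 192 and 193, alternatives chosen after seeing the data. The latter fit kept only fish 189 and 191 at 3.75 nM. The count for the difference between runs was 2014 with DESeq2 and 603 to 1745 when single fish were left out. Log2 fold changes near zero changed sign. With 1 fish left out they ran from -0.28 to 0.070 for HSPA8 (ENSDARG00000068992), -0.24 to 0.075 for MANF, -0.71 to 0.79 for actc1b, -0.099 to 0.063 for hsf1, -0.35 to 1.52 for plk1 and -0.095 to 0.17 for tefa. Without fish 190, 192 and 193, actc1b was at 0.45 with edgeR and 0.45 with DESeq2, hsf1 at 0.13 and 0.11, plk1 at 2.107 and 2.096 and tefa at -0.25 and -0.26. limma-voom gave 0.094 for actc1b and 0.80 for plk1, and the muscle mean as a term gave 0.24 for actc1b. hsf1 was at 0.0071 without the filter, 0.0030 with upper-quartile scaling and 0.059 with DESeq2 without fish 190. plk1 was at 1.36 without fish 189 and 190, and at 1.52 with DESeq2 without fish 190, where tefa was at -0.099. Other than for settings that leave out fish, the cause was not tested. No paired analysis was possible because the 2 groups share no fish numbers. With 5 fish a group and a median SE of 0.25 in the high run, small differences were not detectable. In the main fit edgeR called no large difference either, nox1 at -2.24 ± 0.36 included, so the limit is not confined to small ones.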
